A study of Homo sapiens with 2 samples.

Results

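The 10 genes described here encode the proteins that make microRNAs and carry out RNA interference in human cells: DROSHA, DGCR8, XPO5, DICER1, AGO1, AGO2, AGO3, AGO4, TNRC6A and TNRC6B. They were picked by name, as genes of a route that takes up small interfering RNA, which both samples had received. No measured value entered the rule, but earlier results of these data were known when the set was drawn up. All 10 had a row in both tables, out of 19052 gene identifiers with reads in either table, and all 10 passed the minimum of 20 reads in at least 1 library that was set for a comparison. The study sequenced total RNA of 2 groups, 1 library each, from the human bladder carcinoma line TSU-Pr1, called K12 in the protocol. The series title describes the line as stably expressing KLF5, a transcription factor. The cells were grown in medium with 8% serum and collected 48 h after transfection with siCINP, an siRNA against CINP, or with siCtrl, a control siRNA. No untransfected library was analysed here, and neither siRNA sequence was at hand.

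MicroRNAs are cut out of long nuclear transcripts by the microprocessor, in which DROSHA is the nuclease and DGCR8 the RNA-binding partner. The hairpin is carried to the cytoplasm by exportin-5 (XPO5) and cut again by DICER1, and 1 strand is loaded onto an Argonaute protein. Argonautes find messenger RNAs by pairing with the guide's seed and, through TNRC6 proteins, recruit the deadenylases that shorten the poly(A) tail. A transfected siRNA enters the route at the Argonaute step, and AGO2 is the human Argonaute best known for cutting a fully paired target.

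The siCINP library held 10314147 reads and the siCtrl library 10365249. CINP, the targeted gene, had 53 reads in siCINP cells and 203 in siCtrl cells, a log2 ratio of -2.01 (95% interval -2.47 to -1.56). The simple epithelial keratins KRT8 and KRT18 were abundant, with 30507 and 29477 reads in siCINP cells and 29363 and 27036 in siCtrl cells. The urothelial marker UPK2 and the prostate marker KLK3 were not among the listed genes, and GATA3, a urothelial transcription factor, had 11 reads in siCINP cells and 17 in siCtrl cells. Over whole marker lists, the 11 epithelial genes with a row summed to an FPKM of 3591 in siCINP cells and 3338 in siCtrl cells. Only 6 of these 11 reached the minimum of reads set for a comparison. EPCAM, GATA3, UPK1B, UPK3A and TP63 were under it in both libraries, so the sum says little about them. The 6 mesenchymal genes, of which SPARC was under the minimum, summed to 389 in siCINP cells and 925 in siCtrl cells, mostly VIM. The part of that difference in the results was not tested, and in a bulk sample fewer cells of a type and less RNA per cell cannot be told apart. As each group is a single library, nothing here was checked against replicates and no p-values appear. Intervals set these 2 libraries against each other, not the conditions, and hold the error of counting alone. At 250 reads per library the log2 ratio is known to within 0.26, and at 2000 reads to within 0.09.

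Together the 10 genes took 9157 reads in siCINP cells and 10953 in siCtrl cells. Their log2 ratios, siCINP over siCtrl, lay between -0.93 (TNRC6A) and 0.65 (DROSHA), with a median of -0.16, where the median of all 13076 compared genes was -0.01. None of the 10 was 2-fold higher or 2-fold lower. With an interval that also excluded 0, 1.69% of all compared genes passed 2-fold upwards in siCINP cells and 1.41% downwards. At a 1.5-fold limit TNRC6A and AGO2 were lower (2 of 10, against 4.87% of all compared genes) and DROSHA was higher (1 of 10, against 5.06%). DICER1 lay just short of this limit, 1.46-fold lower, and AGO2 and DROSHA just past it, at 1.56-fold and 1.57-fold. With scaling to total counts AGO2 fell short of the limit, at a log2 ratio of -0.56. With FPKM it also fell short, at -0.56 with a pseudocount of 0.1 and -0.54 with a pseudocount of 1. The interval lay below 0 for 5 members, against 23.1% of all compared genes, and above 0 for 1, against 18.6%. Intervals narrow with depth, and every member had over 200 reads in at least 1 library. Among the 8509 genes with 200 or more reads, a minimum chosen after seeing the data, 31.2% had an interval below 0 and 22.1% an interval above it. Of these deeper genes 4.63% were lower and 3.16% higher at the 1.5-fold limit, and 1.01% lower and 0.482% higher at the 2-fold limit.

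**Figure D1:**
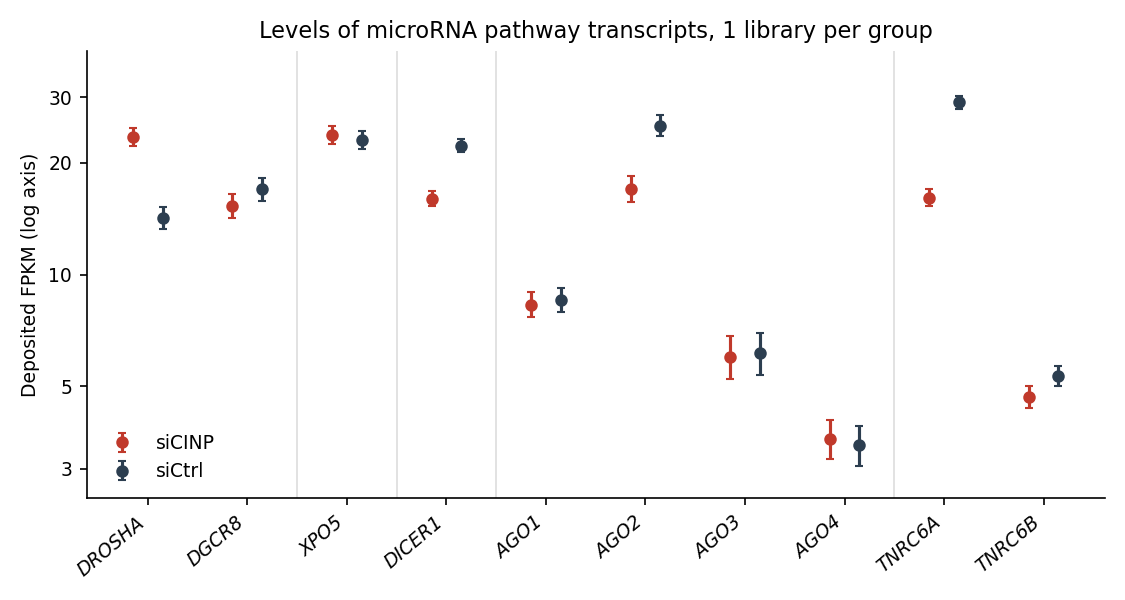
Deposited FPKM (log axis) of the 10 genes in the siCINP library (red) and the siCtrl library (dark blue), 1 library per group. Bars are exact 95% Poisson intervals of the reads carried to the FPKM scale. DROSHA lay higher in siCINP, while TNRC6A, AGO2 and DICER1 lay lower there, outside each other's bars.

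The partners of the microprocessor differed from each other. DROSHA (gene 29102) had 1322 reads in siCINP cells and 803 in siCtrl cells, and its deposited FPKM, a level per length, was 23.5 in siCINP cells and 14.2 in siCtrl cells. The log2 ratio was 0.65 (0.52 to 0.78), above that of 94.9% of compared genes. DGCR8 (gene 54487), whose own transcript contains a hairpin known to be cut by the microprocessor, had 723 reads in siCINP cells and 800 in siCtrl cells, and an FPKM of 15.3 and 17.0. Its log2 ratio was -0.21 (-0.36 to -0.07). With scaling to total counts it was -0.14 and the interval included 0 (-0.29 to 0.01), and the siCtrl count was fractional, so reads may be shared with another gene. Per length, DROSHA stood at 1.53 times DGCR8 in siCINP cells and at 0.838 times in siCtrl cells. The difference of their log2 ratios, in which library scaling cancels, was 0.87 (0.67 to 1.06).

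XPO5 (gene 57510), the exporter of the hairpin, had 1331 reads in siCINP cells and 1297 in siCtrl cells. At a log2 ratio of -0.03 (-0.14 to 0.08) no difference was detectable at this depth. POLR1C, with 322 reads in siCINP cells and 291 in siCtrl cells, overlaps XPO5 in the reference, and without a stated strand setting reads of the overlap cannot be told apart. DICER1 (gene 23405), the cytoplasmic nuclease that releases the duplex, had 1725 reads in siCINP cells and 2398 in siCtrl cells, and an FPKM of 16.0 and 22.2. Its log2 ratio was -0.54 (-0.63 to -0.45), below that of all but 6.68% of compared genes. DROSHA and DICER1, both RNase III enzymes, thus lay on opposite sides of 0, and the difference of their log2 ratios was 1.19 (1.04 to 1.35). DROSHA stood at 1.47 times DICER1 per length in siCINP cells and at 0.639 times in siCtrl cells. Of the dsRNA-binding partners of DICER1, TARBP2 had 325 reads in siCINP cells and 398 in siCtrl cells, the first a fractional count, at a log2 ratio of -0.36 (-0.58 to -0.15). PRKRA had 479 reads in siCINP cells and 509 in siCtrl cells, and its interval included 0.

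**Figure D2:**
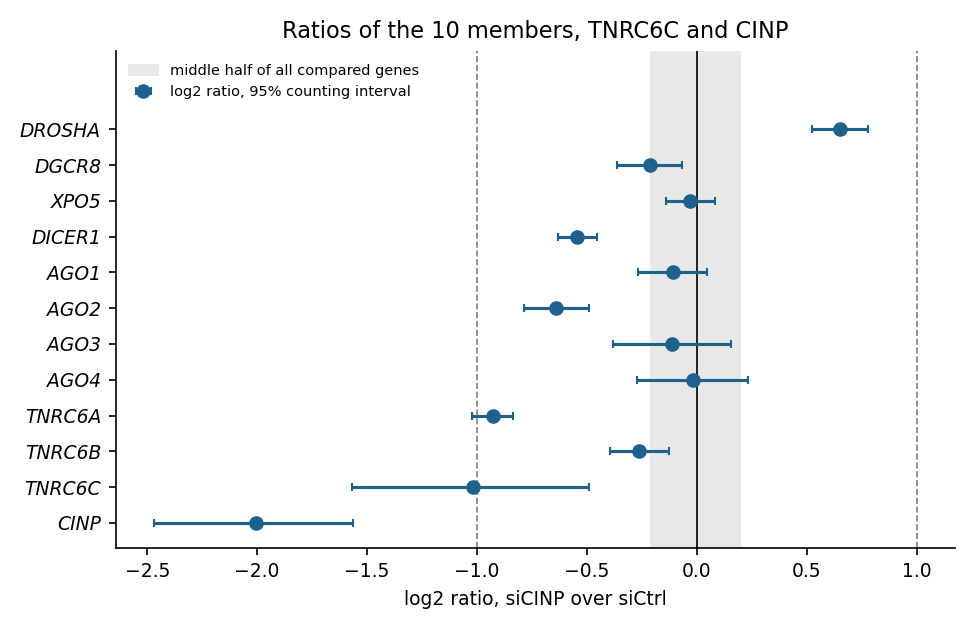
Log2 ratio of siCINP over siCtrl (x axis) for the 10 genes in pathway order, with TNRC6C and the targeted gene CINP, each with its exact 95% counting interval. The grey band runs from the lower to the upper quartile of all compared genes (-0.21 to 0.20) and the dashed lines mark 2-fold. TNRC6A, AGO2, DICER1, TNRC6C and CINP lay to the left of the band, as did TNRC6B and, by little, DGCR8. DROSHA lay to the right, while the points of AGO1, AGO3, AGO4 and XPO5 lay within the band.

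Among the Argonautes, AGO2 was lower and the other 3 showed no detectable difference. AGO2 (gene 27161) had 621 reads in siCINP cells and 922 in siCtrl cells, an FPKM of 17.0 and 25.1, and a log2 ratio of -0.64 (-0.79 to -0.49). AGO1 (gene 26523) had 650 and 669 reads in siCINP and siCtrl cells and AGO3 (gene 192669) had 228 and 235. Their log2 ratios were close, -0.11 (-0.27 to 0.05) for AGO1 and -0.11 (-0.38 to 0.16) for AGO3. AGO4 (gene 192670) had 266 reads in siCINP cells and 257 in siCtrl cells, with fractional counts and a log2 ratio of -0.02 (-0.27 to 0.23). AGO4, AGO1 and AGO3 stand next to each other on chromosome 1 in the reference, while AGO2 lies on another chromosome. The reads of these 3 summed to 1144 in siCINP cells and 1161 in siCtrl cells, and AGO2 differed from that sum by -0.55 (-0.74 to -0.36) on the log2 scale. Taken singly, AGO2 differed from AGO1 by -0.53 (-0.75 to -0.31), from AGO3 by -0.53 (-0.84 to -0.22) and from AGO4 by -0.62 (-0.91 to -0.32). AGO1, AGO3 and AGO4 did not differ from one another beyond counting error. The widest of those 3 intervals, for AGO3 against AGO4, ran from -0.47 to 0.28.

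AGO2 was the most abundant Argonaute per length in both libraries. It held 48.7% of the summed Argonaute FPKM in siCINP cells and 58.0% in siCtrl cells, and AGO1 held 23.8% and 19.8%. AGO3 held 17.2% in siCINP cells and 14.2% in siCtrl cells, and AGO4 10.3% and 8.02%. The summed FPKM of all 4 was 34.9 in siCINP cells and 43.3 in siCtrl cells.

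TNRC6A (gene 27327), which bridges Argonaute to the deadenylases, had the lowest ratio of the 10 genes. It had 1417 reads in siCINP cells and 2573 in siCtrl cells, with whole counts in both, and an FPKM of 16.1 and 29.1. The log2 ratio of -0.93 (-1.02 to -0.83), 1.90-fold lower, lay below that of all but 1.77% of compared genes. TNRC6B (gene 23112), its paralog, had 874 reads in siCINP cells and 999 in siCtrl cells, with fractional counts and a log2 ratio of -0.26 (-0.39 to -0.13). TNRC6C (gene 57690), the third paralog and not among the 10, had 46 and 89 reads in siCINP and siCtrl cells. Its log2 ratio of -1.02 (-1.57 to -0.49) was just past 2-fold with TMM scaling and short of it with the other 3 scalings, reaching -0.95 with total counts. TMC6, which overlaps TNRC6C in the reference, had more reads, 243 in siCINP cells and 369 in siCtrl cells, and reads of the overlap cannot be told apart. TNRC6A differed from TNRC6B by -0.67 (-0.83 to -0.50), while TNRC6A and TNRC6C did not differ beyond an interval of -0.45 to 0.65. TNRC6A held 75.8% of the summed TNRC6 FPKM in siCINP cells and 82.4% in siCtrl cells, and TNRC6B 22.1% and 15.1%. The summed FPKM of the 3 genes was 21.2 in siCINP cells and 35.3 in siCtrl cells.

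**Figure D3:**
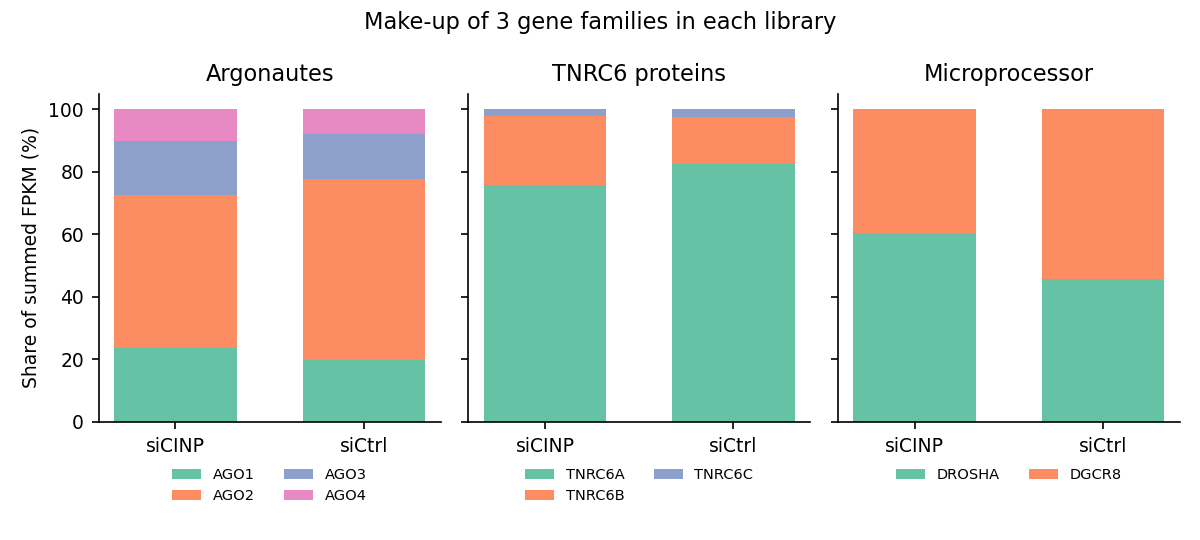
Share of the summed deposited FPKM (y axis, percent) held by each Argonaute, each TNRC6 gene, and DROSHA and DGCR8, in siCINP (left bar of each pair) and siCtrl (right bar), 1 library each. Shares are stacked to 100. AGO2 and TNRC6A held the largest share of their family in both libraries, and DROSHA held 60.5% of its pair in siCINP and 45.6% in siCtrl.

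The order of the 10 transcripts by FPKM differed between the libraries. In siCINP cells XPO5 (23.8) and DROSHA (23.5) led and did not differ beyond counting error. AGO2, TNRC6A, DICER1 and DGCR8 followed between 17.0 and 15.3, no neighbour differing from the next. In siCtrl cells TNRC6A (29.1) led, followed by AGO2 (25.1), XPO5 (23.1) and DICER1 (22.2), and DROSHA stood in the sixth place after DGCR8. AGO1, AGO3, TNRC6B and AGO4 made up the lower end in both libraries, in that order, with AGO1 at 8.30 in siCINP cells and 8.55 in siCtrl cells and AGO4 at 3.61 and 3.47. AGO3 and TNRC6B differed beyond counting error in siCINP cells, and in siCtrl cells they did not.

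The deposited gene lengths, which are averaged over a gene's transcripts, moved little. They were the same in both libraries for AGO2, AGO3, AGO4, TNRC6A and XPO5. AGO4, TNRC6A and XPO5 are each listed with 1 transcript, so their length could not move. For the 5 genes whose lengths differed the change was at most 0.597% (AGO1, 7510 bases in siCINP and 7465 in siCtrl).

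The 7-base sequences TGCAAGA and GCAAGAA were singled out from these same libraries after their values were seen, so nothing about them here is independent support. Over all genes with a 3' UTR of at least 2000 bases, the median log2 ratio was -0.09 for carriers and 0.01 for the rest. They overlap, and TGCAAGAA holds both and is counted as 1 site. Within the 10 genes carriage and ratio were set side by side, on the transcript strand of GENCODE 29 models. A site was present in the longest annotated 3' UTR of 6 of the 10: AGO1, AGO2, AGO3, TNRC6A, TNRC6B and XPO5. Over 11666 compared genes 18.4% were carriers, and 35.2% of the 4330 with such a long 3' UTR were. Of the 10 members 7 have one that long, and 5 of these carry a site. The share was not matched further for length, so 5 of 7 cannot be read as an excess. The 3' UTRs of AGO1, AGO2, AGO3 and TNRC6B have 10921 to 16755 bases. The reverse complements, searched as a comparison, were carried by more genes: 22.0% of the 11666, 41.0% of those with a long 3' UTR, and 8 of the 10 members. Among long 3' UTRs the median log2 ratio was -0.03 for carriers of a reverse complement and -0.02 for the rest. Carriers of TGCAAGA or GCAAGAA included AGO1, AGO3 and XPO5, whose intervals included 0. DICER1, which was lower, had no site in its 3' UTR. The annotated 3' UTRs of AGO1, AGO2 and AGO3 (10921, 11888 and 16755 bases) are longer than the whole length that the deposited tables give these genes, so part of those sites may lie outside the transcripts that were counted. Another pair singled out in the same way, TCGGAGA and CGGAGAA, was carried by none of the 10 members, DROSHA included, and by 4.22% of compared genes.

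Within coding sequences a site was present in 6 of the 10 genes, against 32.0% of 11707 compared genes and 52.8% of the 3641 with a coding sequence of 2000 or more bases, which all 10 have. Over those 3641 genes the median log2 ratio was -0.01 for carriers and 0.05 for the rest. TNRC6A and TNRC6B had 2 coding sites each, and AGO2, DICER1, DROSHA and DGCR8 1 each. All 3 TNRC6 paralogs carry a site in a like stretch of coding sequence, shown here with the single 3' UTR site of TNRC6A, the coding sites of DICER1 and DROSHA, whose ratios lay on opposite sides of 0, the 3' UTR site of XPO5, whose interval included 0, and the coding site of CINP itself. Letters are in the sense direction, with the site in capitals.
TNRC6A, coding: gccaaaatctaTGCAAGAtggctggtgtg
TNRC6B, coding: ttccaaatctaTGCAAGAcggctgggggg
TNRC6C, coding: ttcaaaatctaTGCAAGAAggctggggcag
TNRC6A, 3' UTR: ctcaagcctcaGCAAGAAaccatgtggaa
DICER1, coding: aatctgcagcaGCAAGAAgagccctccga
DROSHA, coding: ttggggagcagGCAAGAAaaggccaaagc
XPO5, 3' UTR: ctttgctttggGCAAGAAtctggtcacct
CINP, coding: ttatctgtcagTGCAAGAAaaattaaggac
In the coding sequence of CINP the site spans bases 102 to 109, counted from the start codon. TNRC6A (log2 ratio -0.93) and TNRC6B (-0.26) both carry 3' UTR and coding sites and differ in ratio, but their sites are not alike. The other coding site of TNRC6A, not printed, is TGCAAGAA (bases 62 to 69), as are the printed sites of TNRC6C and CINP. TNRC6B has only the shorter forms. DROSHA (0.65) and DICER1 (-0.54) each carry GCAAGAA in the coding sequence. Whether the form of the site goes with the ratio was not tested. Of 2545 mature human microRNA sequences in the RefSeq table, 0 have a seed (bases 2 to 8) that pairs with either 7-base sequence. Pairing over bases 2 to 7 alone was not searched, so microRNAs that pair in that way are not covered. A match is a description of these letters only.

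Around the 10 genes, 8 lists of partner genes were counted, 119 compared genes in all. Their median log2 ratio was -0.01, with 30 intervals above 0 (25.2%) and 37 below (31.1%). The shares of all compared genes were 18.6% and 23.1%, and those of genes with 200 or more reads, nearer to the depth of these lists, were 22.1% and 31.2%. Only TNRC6C, downwards, and PLD6, a mitochondrial endonuclease of the germline piRNA route, upwards, passed 2-fold. Each is 0.84% of the 119, where 1.41% of all compared genes passed downwards and 1.69% upwards. TNRC6C did so with TMM scaling only. PLD6 had 47 reads in siCINP cells and 18 in siCtrl cells, with fractional counts.

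The list of partners of the microprocessor, export and dicing steps had 18 compared genes, among them TNRC6C, which belongs to the Argonaute step. Without TNRC6C, 8 of 17 had an interval below 0 (47.1%) and 2 above (11.8%), with a median of -0.08. With TNRC6C these were 9 of 18 and 2, with a median of -0.11. Among genes with 200 or more reads, the background for the lists in this paragraph, 31.2% lay below 0 and 22.1% above. Besides TNRC6C the genes named by the interval rule were NCBP2, the small subunit of the cap-binding complex, at -0.56 with fractional counts, and SRSF3, a splicing factor that also helps DROSHA find its cleavage site, at -0.41. Of 18 Argonaute partners and regulators, 4 lay above (22.2%) and 5 below (27.8%), with a median of 0.01. EGFR, a receptor kinase reported to phosphorylate AGO2, was at -0.78, ZSWIM8, a ubiquitin ligase adaptor in target-directed microRNA decay, at -0.54, and FXR1, an RNA-binding protein, at 0.39. Of 14 chaperones of Argonaute loading, 7 lay above 0 (50.0%) and 2 below (14.3%), with a median of 0.12. The HSP90 cochaperone FKBP4 had 2210 reads in siCINP cells and 1449 in siCtrl cells (0.54), DNAJA1 was at 0.46, and the cochaperone p23, encoded by PTGES3, was at -0.76 with fractional counts. With scaling to total counts 10 of the 14 lay above 0, where the share of all compared genes above 0 was 26.6%. The chaperones had a median of 2545 reads and the 18 partners 2544, against 329 over all compared genes. These shares were therefore not matched for depth, and intervals of deep genes exclude 0 at small ratios. At the 1.5-fold limit each of these 2 lists had 0 genes higher and 1 lower, where 5.06% and 4.87% of all compared genes passed.

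**Figure D4:**
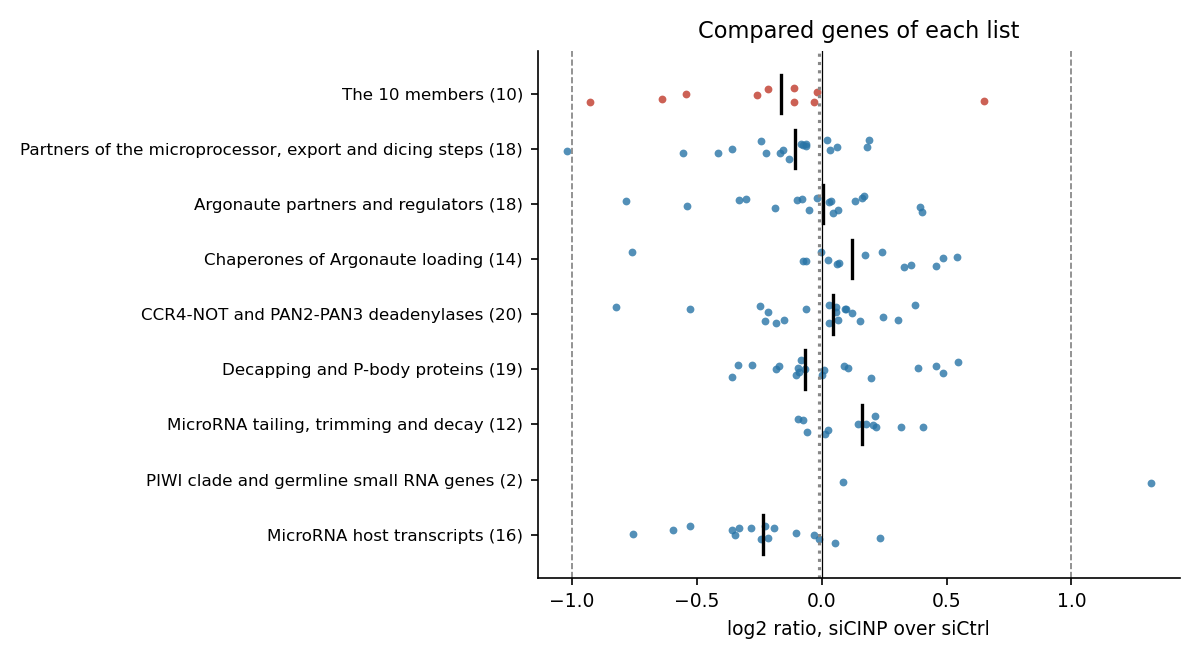
Log2 ratio of siCINP over siCtrl (x axis) for each compared gene of the 10 members (red) and of the 8 partner lists (blue), with the number compared in brackets. Black bars are medians, the dotted line is the median of all compared genes (-0.01) and the dashed lines mark 2-fold. The host transcripts have the lowest median (-0.23) and the tailing, trimming and decay genes the highest (0.16) among the lists with a bar.

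The deadenylases that TNRC6 proteins recruit were spread on both sides of 0. Of 20 genes of CCR4-NOT, PAN2-PAN3 and their adaptors, 5 lay above and 6 below, with a median of 0.04, near the shares of 22.1% and 31.2% among genes with 200 or more reads. CNOT2, a scaffold subunit, was at -0.53, and TNKS1BP1, a CCR4-NOT-associated protein, and TOB2, an adaptor, were at 0.37 and 0.31. Of 19 decapping and P-body genes, 6 lay above (31.6%) and 4 below (21.1%), with a median of -0.06. EDC3, an enhancer of decapping, was at 0.55, the decapping enzyme DCP2 at 0.49 with fractional counts, and the helicase DDX6 at -0.34. Of 12 genes of microRNA tailing, trimming and decay, 5 lay above 0 (41.7%) and 0 below, against the same 22.1% and 31.2%. They included the exoribonuclease PNPT1 at 0.41, the uridylyltransferase TUT4 at 0.21 and the deadenylase PARN at 0.15, where PNPT1 and PARN had fractional counts. Of the 12 PIWI and germline genes 2 were compared, so the germline arm was at or near the lower limit of these libraries.

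Of 16 compared transcripts that host microRNA hairpins, 11 had an interval below 0 and 0 above, with a median of -0.23. The share below was 68.8%, against 23.1% of all compared genes and 31.2% of those with 200 or more reads. With scaling to total counts 9 lay below 0, against 16.7% of all compared genes. Of the 20 compared rows whose symbols mark them as microRNA host genes, 4 lay below 0 and 0 above, with a median of -0.02. All 44 such rows, compared or not, together had only 1936 reads in siCINP cells and 2024 in siCtrl cells, so their intervals were mostly wide. Of those 20, 5 are in the list of 16, and of the 15 outside it 1 lay below 0, with a median of -0.01. H19, a noncoding RNA that holds miR-675, had 5139 reads in siCINP cells and 6295 in siCtrl cells (-0.36). CTDSP1 and SMC4, coding genes with microRNAs in their introns, were at -0.33 and -0.28. Counts over exons of such genes measure the spliced host RNA, not the uncut hairpin or the mature microRNA, and neither of those was measured.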

How the data were processed

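Total RNA of TSU-Pr1 cells was sequenced on a BGISEQ-500, 1 library per group. The submitters' processing notes name HISAT, Bowtie2 and the build hg19, but no counting tool, annotation or strand setting is stated. The authors deposited expected counts, which are estimated reads per gene, not normalised and not always whole, per the file headers. Per the file headers the authors also deposited FPKM, in which length and depth are divided out. Symbols for 18971 of the 19052 identifiers came from a RefSeq table (GRCh38.p14), used for names and neighbours only, since the build differs.

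Expected counts were rounded and scaled by TMM (edgeR 4.0.16, R 4.3.3; factors 1.03 for siCINP and 0.974 for siCtrl). Intervals on log2 ratios are exact Clopper-Pearson 95% intervals on the split of the reads, and those on differences of log2 ratios are exact conditional intervals (scipy 1.17.1). A gene at 0 was given 3 reads, and a gene was compared where either library held at least 20. Counts were called whole within 0.005. The methods were tested on simulated data. The members and lists were chosen with earlier results of these data known. Named genes are the members, CINP, and up to 3 genes per list ranked by the distance from 0 of the nearer interval end, among intervals that exclude 0. Genes named besides these (TARBP2, PRKRA, the markers, and overlapping or host genes) were chosen after their values were seen. Sites were searched in the longest 3' UTR and longest coding sequence of GENCODE 29 basic transcripts. Scaling, minimum of reads, FPKM with pseudocounts of 0.1 and 1, thinning and whole counts only were varied.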

Additional observations from a re-analysis of the deposited data

How the results depend on the processing

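All depend on 1 library per group. No paired analysis was possible because each group has 1 library. Of 72 alternative log2 ratios of the 10 members, TNRC6C and CINP, 69 stayed inside the gene's counting interval and none whose interval excluded 0 changed sign. The other 3 came from FPKM with a pseudocount of 1: TNRC6A at -0.82, DICER1 at -0.45 and TNRC6C at -0.37. With a pseudocount of 0.1 these stood at -0.85, -0.47 and -0.82, and with scaling of the counts to their total TNRC6A and DICER1 stood at -0.85 and -0.47 too. AGO4 and XPO5, with intervals that included 0, stood at 0.06 and 0.04 with scaling to total counts. With FPKM all 15 differences between genes stayed inside their counting intervals. AGO1 minus AGO3 and TNRC6A minus TNRC6C, whose intervals include 0, changed sign, to -0.01 and -0.03. All 90 alternative medians moved by no more than the typical counting interval of their genes.

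The counts of all genes past a fold limit fell with fewer genes compared. Against 221 higher and 184 lower genes at 2-fold, a minimum of 100 reads gave 62 and 98, whole counts only 119 and 95, and a minimum of 200 reads, added after seeing the data, 41 and 86. With no minimum 339 were higher. Against 662 higher and 637 lower genes at 1.5-fold, whole counts only gave 352 and 391, a minimum of 200 reads gave 269 and 394, and a minimum of 100 reads gave 380 higher genes. Scaling moved the balance of higher and lower genes. With total counts 296 were higher and 149 lower at 2-fold, and 858 higher and 484 lower at 1.5-fold. Upper quartile and DESeq2 scaling lay between these and TMM.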

Other observations

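The tables also list 157 microRNA hairpin genes, which together had 404 reads in siCINP cells and 394 in siCtrl cells. Only 4 of them reached 20 reads: MIR3655, MIR1282, MIR3064 and MIR5047, named here after their values were seen. All 4 lie inside a longer gene of the reference (IK, SERF2 and, for the last 2, DDX5, a helicase of the microprocessor), and reads of the hairpin and of its host cannot be told apart. MIR3655 had 78 reads in siCINP cells and 123 in siCtrl cells, with fractional counts and a log2 ratio of -0.73 (-1.15 to -0.30). MIR1282 had 61 and 49 reads in siCINP and siCtrl cells, MIR3064 had 30 and 27, and MIR5047 had 26 and 20, each with an interval that included 0. DDX5 itself had 6980 reads in siCINP cells and 7050 in siCtrl cells. The mature products, from RefSeq (GRCh38.p14), share no seed, which is printed in capitals.
hsa-miR-3655: gCUUGUCGcugcgguguugcu
hsa-miR-1282: uCGUUUGCcuuuuucugcuu
hsa-miR-3064-5p: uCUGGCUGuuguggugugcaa
hsa-miR-3064-3p: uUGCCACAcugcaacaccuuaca
hsa-miR-5047: uUGCAGCUgcgguuguaaggu
The 2 hairpins known inside DGCR8 gave no measure of its cleavage, with MIR1306 at 0 reads in siCINP cells and 1 in siCtrl cells.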
